A study of Mus musculus with 8 samples.

Results

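The regions described here were the promoter peaks of protein-coding genes: stretches of open chromatin that the deposited table annotates as lying at a transcription start site (promoter-TSS) and assigns to a protein-coding gene on chromosomes 1 to 19. The rule that picks them reads that annotation and no measured value. They came to 12116 of 67822 peaks (17.9%), assigned to 9758 of the 16095 genes that had any peak. Open chromatin was profiled by ATAC-seq (a transposase cuts accessible DNA and leaves sequencing adapters behind) in CD11b-positive microglia of the mouse forebrain. There were 4 libraries from Nlrp3 knockout mice (Nlrp3-/-, also named Cias1-knockout) and 4 from wild-type mice. The labels give the C57BL/6N background for the wild type and none for the knockout line, so the loss of Nlrp3 and any difference in background cannot be told apart. They do not give age, sex or the number of animals behind a library, and p-values therefore rest on the spread among these libraries alone, part of which may be technical. The comparison asks which promoters differed in accessibility in microglia without NLRP3, the sensor protein of an inflammasome that activates caspase-1.

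A promoter is the stretch around a start site where general transcription factors and RNA polymerase II assemble. In mammals most housekeeping genes have promoters rich in CpG dinucleotides that stay open in nearly every cell, while many cell-type-specific genes have CpG-poor promoters whose opening depends on lineage factors such as PU.1, the master regulator of macrophages. The factors NFY, which binds CCAAT boxes, and SP1, which binds GC boxes, are known for keeping promoters free of nucleosomes. Microglia are the resident macrophages of the brain, and their complement and receptor genes are examples of the lineage-specific kind.

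The promoters that the results turn on are shown first, as RefSeq windows of the GRCm38.p6 assembly (the assembly of mm10), from 250 bases before to 50 after a start site, 5′ to 3′ on the strand of the gene. Capitals mark every match, on either strand, to the 10 motifs spelled out below, of which the GC box GGGCGG, the CCAAT box, the E-box CACGTG and the PU.1 sequence GAGGAAGT occurred in these windows. In Sp1 a CCAAT box and a GC box share bases and form 1 capital run. The first set holds promoters that passed the test between genotypes, plus the neighbouring Mapkapk3 promoter that did not. The Nlrp3 windows are chr11:59541319-59541618 and chr11:59542436-59542735, both on the plus strand. The Mapkapk3 windows are chr9:107289828-107290127 for the promoter that passed and chr9:107289347-107289646 for its neighbour, both on the minus strand. The Zfp932 window is chr5:109996277-109996576 and the Ccdc126 window is chr6:49319024-49319323, both on the plus strand. Aurkaip1 also passed the test.
Nlrp3 upstream promoter: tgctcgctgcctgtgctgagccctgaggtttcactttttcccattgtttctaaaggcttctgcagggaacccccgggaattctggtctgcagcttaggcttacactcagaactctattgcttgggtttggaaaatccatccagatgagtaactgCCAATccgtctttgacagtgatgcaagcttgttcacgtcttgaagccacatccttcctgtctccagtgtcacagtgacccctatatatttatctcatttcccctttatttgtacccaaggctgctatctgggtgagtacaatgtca
Nlrp3 downstream promoter: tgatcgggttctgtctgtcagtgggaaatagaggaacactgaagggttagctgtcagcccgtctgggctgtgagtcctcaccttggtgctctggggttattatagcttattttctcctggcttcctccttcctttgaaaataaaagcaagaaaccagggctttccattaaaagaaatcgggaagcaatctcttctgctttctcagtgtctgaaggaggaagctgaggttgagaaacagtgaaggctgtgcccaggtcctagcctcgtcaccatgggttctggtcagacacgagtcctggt
Mapkapk3 promoter that passed: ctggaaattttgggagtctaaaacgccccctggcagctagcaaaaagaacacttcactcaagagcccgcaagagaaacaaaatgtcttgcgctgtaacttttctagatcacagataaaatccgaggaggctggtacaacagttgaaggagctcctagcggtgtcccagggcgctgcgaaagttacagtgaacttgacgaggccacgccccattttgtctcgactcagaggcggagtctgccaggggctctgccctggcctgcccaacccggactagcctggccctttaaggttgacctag
Mapkapk3 neighbouring promoter: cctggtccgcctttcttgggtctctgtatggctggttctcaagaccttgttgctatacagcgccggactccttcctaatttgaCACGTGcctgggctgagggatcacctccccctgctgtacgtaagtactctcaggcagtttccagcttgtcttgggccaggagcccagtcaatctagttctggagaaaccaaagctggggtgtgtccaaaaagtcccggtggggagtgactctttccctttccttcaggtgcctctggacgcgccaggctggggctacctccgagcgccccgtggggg
Zfp932 promoter: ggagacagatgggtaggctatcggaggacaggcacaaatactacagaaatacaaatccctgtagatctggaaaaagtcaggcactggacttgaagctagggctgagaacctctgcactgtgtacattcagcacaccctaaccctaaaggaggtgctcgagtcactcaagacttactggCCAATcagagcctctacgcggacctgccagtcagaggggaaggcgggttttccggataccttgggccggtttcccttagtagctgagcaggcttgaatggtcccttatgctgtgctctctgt
Ccdc126 promoter: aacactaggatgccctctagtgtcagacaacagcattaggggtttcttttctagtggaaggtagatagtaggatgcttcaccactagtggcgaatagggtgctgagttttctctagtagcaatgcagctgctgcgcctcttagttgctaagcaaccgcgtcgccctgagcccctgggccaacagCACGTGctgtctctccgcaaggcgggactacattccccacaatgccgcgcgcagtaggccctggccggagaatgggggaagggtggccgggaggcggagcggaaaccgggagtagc

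The second set shows promoters of high accessibility. Sp1 held the most tags of all promoter peaks, although its window (chr15:102406066-102406365, plus strand) overlapped that peak by only 19 bp. Mxd4 (chr5:34187661-34187960, minus strand) was among the highest per length and has 2 CCAAT boxes. The complement genes C1qb (chr4:136886151-136886450, minus strand) and C1qc (chr4:136892865-136893164, minus strand) are CpG-poor promoters of the microglial kind, and C1qc holds a PU.1 sequence.
Sp1 promoter: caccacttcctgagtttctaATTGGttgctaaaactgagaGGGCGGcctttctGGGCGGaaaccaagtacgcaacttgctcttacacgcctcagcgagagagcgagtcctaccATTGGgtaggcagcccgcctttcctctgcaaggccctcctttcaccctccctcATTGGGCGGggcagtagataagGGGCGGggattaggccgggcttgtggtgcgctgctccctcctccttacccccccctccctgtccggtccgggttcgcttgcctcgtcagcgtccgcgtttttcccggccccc
Mxd4 promoter: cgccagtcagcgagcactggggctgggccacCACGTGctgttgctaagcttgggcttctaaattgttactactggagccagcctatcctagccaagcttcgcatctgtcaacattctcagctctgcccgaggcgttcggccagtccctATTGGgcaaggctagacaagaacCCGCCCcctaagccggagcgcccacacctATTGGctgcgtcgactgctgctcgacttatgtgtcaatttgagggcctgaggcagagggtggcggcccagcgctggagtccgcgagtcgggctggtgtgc
C1qb promoter: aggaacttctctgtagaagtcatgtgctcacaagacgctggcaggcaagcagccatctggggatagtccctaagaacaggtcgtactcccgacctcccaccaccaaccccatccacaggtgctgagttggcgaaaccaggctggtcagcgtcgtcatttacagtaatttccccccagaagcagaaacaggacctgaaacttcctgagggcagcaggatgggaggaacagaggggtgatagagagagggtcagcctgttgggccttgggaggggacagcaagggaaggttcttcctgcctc
C1qc promoter: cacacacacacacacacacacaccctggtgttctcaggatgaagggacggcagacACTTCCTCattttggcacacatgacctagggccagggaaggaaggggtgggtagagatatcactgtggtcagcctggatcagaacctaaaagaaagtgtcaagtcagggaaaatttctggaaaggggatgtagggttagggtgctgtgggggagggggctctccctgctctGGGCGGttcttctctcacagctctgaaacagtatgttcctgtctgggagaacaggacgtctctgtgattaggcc

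The libraries held 11325865 to 15521580 tags, of which 4.96% to 26.2% fell in peaks. NLRP3KO replicates 1 and 2 stood apart, with 6.68% and 4.96% of their tags in peaks, against 20.9% and 26.2% in NLRP3KO replicates 3 and 4 and 9.79% to 17.5% in the WT libraries. A tested promoter peak had a median of 15 and 12 tags in NLRP3KO replicates 1 and 2, 40 and 61 in NLRP3KO replicates 3 and 4, and 26 to 43 in the WT libraries. The first principal component of the promoter peaks, 32.2% of their variance, set NLRP3KO replicate 2 apart, and the second, 20.5%, set NLRP3KO replicate 1 apart. Levels below are CPM, that is, tags relative to the total in tested peaks after TMM scaling, given per kb of peak width where peaks are compared with each other. The labelled cell type was checked at promoters: 24 of 30 homeostatic microglial genes had a promoter peak, against 3 of 23 neuronal, 5 of 17 astrocyte, 5 of 20 oligodendrocyte-lineage, 4 of 22 endothelial and mural, and 5 of 29 granulocyte and lymphocyte genes. Genes on the X chromosome in these lists cannot be counted, since the peaks were taken from chromosomes 1 to 19. Rbfox3, Snap25, Gfap, Aqp4, Mag, Mog, Cdh5 and Cd3e, markers of those other cells, had no promoter peak. Other markers on the same lists had one, such as Eno2, Slc1a3, Myrf, Slc2a1 and Il7r. Border macrophage and monocyte genes had one in 11 of 23 cases, although Cd163, Lyve1, Ccr2 and Ms4a7 had none.

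Promoter peaks held more tags per length than the rest, given here as a description with no test. Their median was 55.9 CPM per kb, against 32.4 CPM per kb in all other peaks, and their median width was 280 bp, against 265 bp. Of the promoter peaks, 86.7% came from both of the authors' reproducible peak lists, 3.73% from the NLRP3KO list only and 9.56% from the WT list only. Among all other peaks 73.1% came from both lists. Most genes had 1 promoter peak (7750 genes, 79.4%), 1722 had 2 and 286 had 3 to 6. Among the 2008 genes with 2 or more, the highest peak had a median of 2.30 times the level per kb of the lowest, and 31.3 times at Prmt5, an arginine methyltransferase. Elmo2, an adaptor for engulfment of dying cells, had 6 promoter peaks, whose levels ran between 21.2 and 163.8 CPM per kb. Adcy7, an adenylate cyclase, and Bmf, a pro-apoptotic BCL2-family member, were the first by name of 8 genes with 5. None of these 16 peaks differed between genotypes at an adjusted p under 0.05, and 2 of them, 1 at Elmo2 and 1 at Adcy7, held too few tags to be tested.

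The centre of a promoter peak lay at a median of 64 bp before the assigned start site, with the middle of the distribution between 172 and 8 bp before it. Accessibility was highest for the 1877 peaks centred 199 to 100 bp before the start site, at 86.3 CPM per kb. It was 63.6 CPM per kb for the 4903 peaks centred within the last 99 bp or on the start site itself, and 31.1 CPM per kb for the 522 peaks centred 101 to 1000 bp after it. The band at 199 to 100 bp was the highest in all 8 libraries, with 75.0 to 95.8 CPM per kb in NLRP3KO libraries and 78.9 to 102.2 CPM per kb in WT libraries. The genotypes overlapped in every band.

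**Figure D1:**
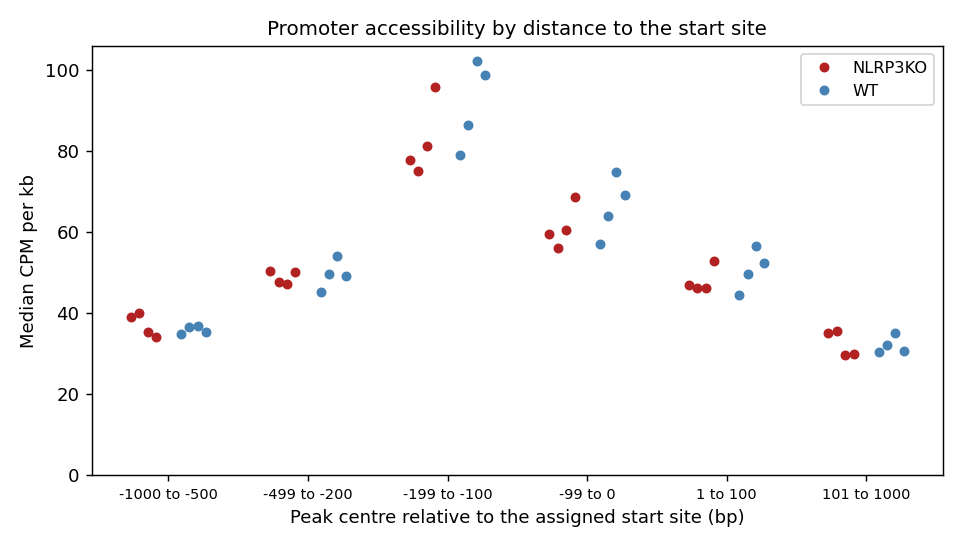
Median CPM per kb of promoter peaks (vertical axis) by the distance in bp of the peak's centre from the assigned start site, 1 point per library (NLRP3KO red, WT blue). Every library has its highest value at 199 to 100 bp before the start site, and the genotypes overlap in each band.

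Promoter sequence was matched to 9728 of the 12116 promoter peaks (80.3%), taking the window of the assigned gene that lay within 1000 bp of the peak. Among them 77.6% were CpG-rich, that is, their CpG dinucleotides came to at least 0.6 of the number expected from the base composition, against 35.8% of all 32851 RefSeq windows. CpG-rich promoters had a median of 60.6 CPM per kb and CpG-poor ones 47.9 CPM per kb. The level did not rise steadily with CpG content: it was 44.8 CPM per kb at a ratio under 0.2, 63.2 CPM per kb between 0.6 and 0.8, and 55.5 CPM per kb above 1. In 1028 promoters the start site of another protein-coding gene lay on the opposite strand, at most 1000 bp upstream. These had a median of 63.3 CPM per kb, against 57.3 CPM per kb in the other 8700, and 91.8% of them were CpG-rich, against 75.9%. Noncoding partners were not counted.

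Of 10 motifs searched on both strands, the GC box GGGCGG was present in 69.5% of promoter windows with a peak, against 35.7% of all windows of the same length. The CCAAT box was about equally common in both, at 38.8% and 37.4%. The ETS motif CCGGAAGT was in 8.75% against 3.89%, the NRF1 core GCGCATGC in 5.50% against 2.71%, the cyclic AMP response element TGACGTCA in 3.54% against 1.79%, the E-box CACGTG in 10.9% against 7.15%, and the YY1 motif AAGATGGC in 4.59% against 2.75%. The PU.1 sequence GAGGAAGT was in 3.53% against 3.20%. The TATA box TATAAA and the AP-1 motif TGANTCA were less common with a peak, at 6.15% against 13.6% and 4.26% against 7.81%. These matches describe the letters of the windows and are not binding sites, and the base composition of peaks and windows differs. The full set of windows covers all gene types, so openness and gene type cannot be told apart in these contrasts.

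Over all promoters with a window, the CCAAT box went with the highest accessibility of the 10 motifs. Promoters with one had a median of 77.3 CPM per kb, against 49.9 CPM per kb without. For the GC box the medians were 61.3 CPM per kb with and 50.6 CPM per kb without, and for TATAAA 48.8 CPM per kb with and 58.2 CPM per kb without. The CCAAT gap was larger in CpG-rich promoters (84.7 CPM per kb with and 51.3 CPM per kb without) than in CpG-poor ones (53.4 CPM per kb with and 45.7 CPM per kb without). Among CpG-poor promoters, those with the NRF1 core (59.7 CPM per kb), YY1 (55.9 CPM per kb) or PU.1 sequence (55.7 CPM per kb) were higher. The NRF1 and YY1 values rest on few promoters. Of 535 promoters with the NRF1 core 93.8% were CpG-rich, and of 447 with YY1 91.9% were. The number of copies was examined after these values were seen. The median was 49.9 CPM per kb in 5955 promoters with no CCAAT box, 62.4 CPM per kb in 2239 with 1, 93.1 CPM per kb in 969 with 2, and 142.7 CPM per kb in 565 with 3 or more, such as Sp1. All 8 libraries showed that order. With 3 or more copies the medians were 115.0 to 153.9 CPM per kb in NLRP3KO libraries and 129.4 to 165.3 CPM per kb in WT libraries, so the genotypes overlapped. Copies were most frequent 100 to 51 bp before the start site, where 28.8% of matches in promoters with a peak lay, against 25.3% of matches in all windows. These levels are descriptions with no test, and base composition was not held equal between the classes.

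**Figure D2:**
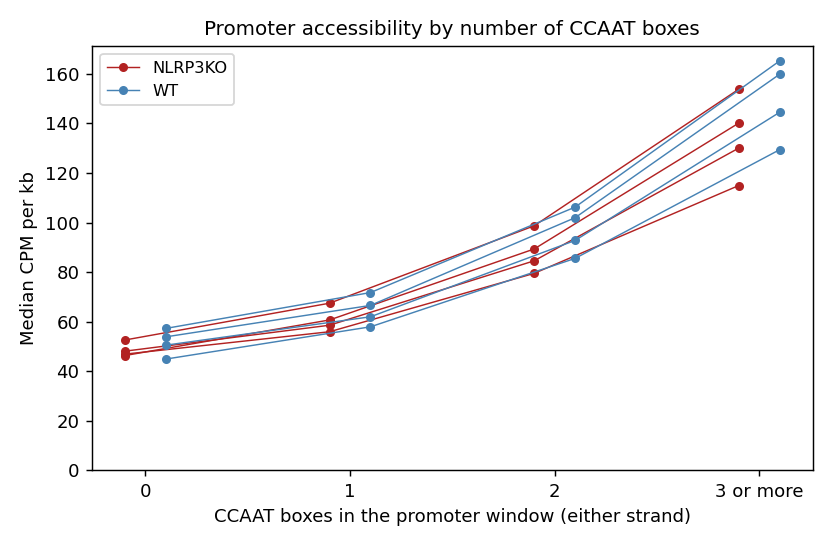
Median CPM per kb of promoter peaks (vertical axis) by the number of CCAAT boxes in the RefSeq window on either strand, with 1 line per library (NLRP3KO red, WT blue). In each library the median is lowest with 0 copies and highest with 3 or more.

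The 12 promoter peaks with the most tags included those of the transcription factors Sp1 (195.9 CPM), Rfx1 and Mxd4, a MYC antagonist, and of the kinases Map3k3 and Rps6ka5. The others were assigned to Fam72a (193.4 CPM), Mylpf, Rab40c, Mtmr4, Evi5l, Stip1, a co-chaperone, and Ap2a1, a clathrin adaptor. At Sp1 the libraries held 156, 133, 471 and 620 tags in NLRP3KO and 392, 287, 328 and 413 tags in WT. After scaling these came to 198 ± 7.8 CPM in NLRP3KO and 194 ± 6.2 CPM in WT (SD, n = 4 each), a log2 fold change of 0.03 with a standard error of 0.09, within the spread between libraries. None of the 12 passed the test, and their log2 fold changes ran between -0.15 (Stip1) and 0.14 (Mtmr4). The spread between libraries narrowed with level, and the median coefficient of variation was 36.9% in NLRP3KO and 30.3% in WT for promoter peaks of 4 to 8 CPM, and 11.1% in NLRP3KO and 10.6% in WT at 64 to 128 CPM.

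Between genotypes 6 of the 11375 tested promoter peaks passed an adjusted p under 0.05 in edgeR's quasi-likelihood F test with Benjamini-Hochberg adjustment over all tested peaks. That is 0.0527%, against 0.17% of all 58135 tested peaks. They comprised 1 that was higher in NLRP3KO, where the share over all tested peaks was 0.055%, and 5 that were lower, where it was 0.115%. The other 741 promoter peaks held too few tags to be tested. The 5 lower peaks were both Nlrp3 promoter peaks and those of Mapkapk3, Aurkaip1 and Ccdc126, and the higher peak was that of Zfp932. In each of the 6 the libraries of the genotypes did not overlap in TMM-scaled CPM. Over all tested peaks, 1.68% were higher and 1.49% lower in NLRP3KO without overlap. The 6 were picked by p on the same values, and other scalings were not checked for overlap. The Nlrp3 and Mapkapk3 calls also stood without NLRP3KO replicates 1 and 2, as did those of Aurkaip1 and Zfp932, while Ccdc126 then had an adjusted p of 0.0515. Of the tested promoter peaks 32 (0.281%) had a log2 fold change beyond 1 in either direction. The matching share over all tested peaks was not counted, so this number does not set promoters apart.

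At Nlrp3, the targeted gene, tags were all but absent in the knockout. Whether the knockout allele still holds the DNA under these peaks was not tested, so closed chromatin and absent sequence cannot be told apart here. The upstream promoter peak (chr11:59541383-59541657, centred 49 bp before its start site) held 0, 0, 0 and 1 tags in NLRP3KO and 75, 58, 58 and 80 tags in WT. The downstream one (chr11:59542459-59542809, 52 bp before a second start site) held 0, 0, 1 and 1 tags in NLRP3KO and 68, 56, 54 and 69 tags in WT. Every NLRP3KO library was at or next to 0 and every WT library was above 50 tags. Summed over libraries and scaled, the upstream peak had 1 tag in NLRP3KO and 271 tags in WT, a ratio of WT over NLRP3KO of 253.9 with a 95% counting interval of 45.2 to 10065. The downstream peak had 2 tags in NLRP3KO and 247 tags in WT, a ratio of WT over NLRP3KO of 115.7 (31.7 to 960.7). The adjusted p-values of edgeR were 3.81e-11 and 6.58e-11. Both peaks were in the authors' WT list only. The nearest peaks assigned to Nlrp3 on either side kept tags: the one centred 3029 bp before the start site held 9, 11, 40 and 72 tags in NLRP3KO and 68, 44, 42 and 62 tags in WT. Scaled, that was 17.0 ± 5.1 CPM in NLRP3KO and 29.4 ± 4.2 CPM in WT (SD, n = 4 each), a log2 fold change of -0.67 with an adjusted p of 0.563 in edgeR and an unadjusted one of 0.00316. The intronic one 1502 bp after the start site held 8, 4, 18 and 22 tags in NLRP3KO and 12, 23, 14 and 13 tags in WT (adjusted p = 1 in edgeR).

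Mapkapk3 encodes a kinase that is activated by p38 MAP kinase in stress and cytokine signalling. Its promoter peak at chr9:107289771-107290010, centred 13 bp before the start site, held 17, 19, 59 and 89 tags in NLRP3KO and 129, 82, 111 and 123 tags in WT. Scaled, that was 25.8 ± 3.7 CPM in NLRP3KO and 60.6 ± 3.6 CPM in WT (SD, n = 4 each), with every NLRP3KO library below every WT library. The peak fell by 1.20 on the log2 scale (standard error 0.16, adjusted p = 0.000103 in edgeR). With scaling to all tags the log2 fold change was -1.09 and the call was lost (adjusted p = 1 in edgeR). The promoter peak of the next Mapkapk3 start site, 82 bp away at chr9:107289420-107289689, did not pass: it held 14, 5, 21 and 23 tags in NLRP3KO and 17, 13, 13 and 20 tags in WT, a log2 fold change of 0.14 with a standard error of 0.30. Within 500 kb of the promoter that passed, 6 further peaks passed the test, 1 higher and 5 lower in NLRP3KO, of 73 tested. Of these, 3 lay in introns of Mapkapk3. The most changed of them, at chr9:107280869-107281110, held 3, 2, 4 and 4 tags in NLRP3KO and 34, 18, 14 and 21 tags in WT (log2 fold change -2.57, adjusted p = 0.00152 in edgeR).

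Aurkaip1 encodes a protein of the small subunit of the mitochondrial ribosome that also binds Aurora A kinase. Its promoter peak (chr4:155831170-155831377) held 4, 4, 12 and 17 tags in NLRP3KO and 29, 25, 25 and 31 tags in WT, or 5.37 ± 0.45 CPM in NLRP3KO and 15.2 ± 1.6 CPM in WT (SD, n = 4 each). It fell by 1.47 on the log2 scale (standard error 0.27, adjusted p = 0.00826 in edgeR). A peak in the 5′ untranslated region 91 bp away held 20, 14, 60 and 71 tags in NLRP3KO and 52, 42, 57 and 70 tags in WT, a log2 fold change of -0.33 that did not pass (adjusted p = 1 in edgeR). Without NLRP3KO replicate 3 the adjusted p of the Aurkaip1 promoter was 0.0569, in DESeq2's Wald test it was 0.0861, and with scaling to all tags it was 1 in edgeR.

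Ccdc126 encodes a coiled-coil domain protein. Its promoter peak (chr6:49319013-49319292) held 14, 23, 74 and 92 tags in NLRP3KO and 111, 68, 98 and 100 tags in WT, or 28.3 ± 7.8 CPM in NLRP3KO and 51.3 ± 4.8 CPM in WT (SD, n = 4 each). It fell by 0.82 on the log2 scale (standard error 0.17, adjusted p = 0.0386 in edgeR), with no overlap between the genotypes in CPM. The call was lost under 11 of 18 alternatives, where the adjusted p of all 18 ran between 0.00427 and 1. These include leaving out WT replicate 3 (0.193) or NLRP3KO replicate 1 (0.13), while leaving out NLRP3KO replicate 2 kept it.

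Zfp932 encodes a zinc-finger protein of a large mouse family with many related members, and whether reads of related copies fall in its peak was not tested. Its promoter peak (chr5:109996380-109996616) held 6, 6, 20 and 47 tags in NLRP3KO and 0, 7, 0 and 0 tags in WT. That was 10.0 ± 3.5 CPM in NLRP3KO and 1.23 ± 2.5 CPM in WT (SD, n = 4 each), and all the WT tags came from replicate 2. The peak rose by 3.41 on the log2 scale (standard error 0.62, adjusted p = 0.00826 in edgeR), and it was in the authors' NLRP3KO list only. The call was lost without NLRP3KO replicate 4 (adjusted p = 0.111 in edgeR) or without WT replicate 1, 3 or 4 (0.0553 to 0.0619), as it was with robust moderation (0.142), and the adjusted p was 1 in DESeq2's Wald test. It was the only peak on chromosome 5 that passed.

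**Figure D3:**
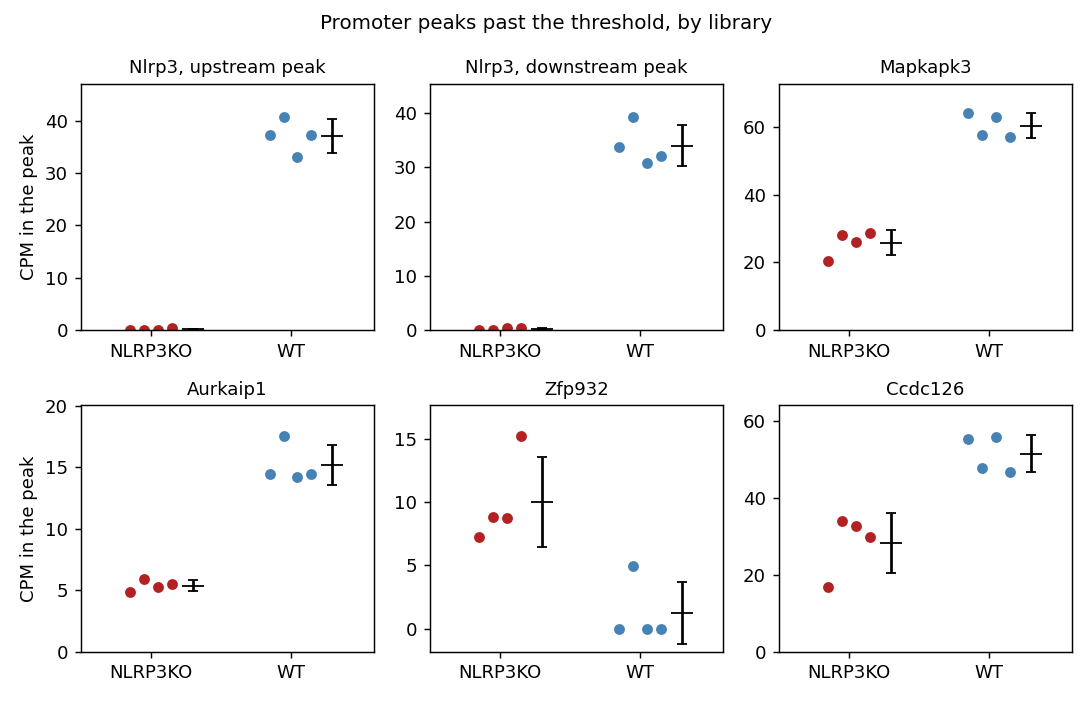
CPM (vertical axis) in each library at the 6 promoter peaks with an adjusted p under 0.05, NLRP3KO on the left in red and WT on the right in blue, with the mean and SD of 4 libraries as a bar. On this TMM-scaled axis the genotypes are separate in every panel, and 1 WT library of Zfp932 is above 0.

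Below the threshold, the 10 lower promoter peaks with the smallest p and 20 or more tags per library on average were those of Luc7l2, a splicing factor, Auh, an enzyme of leucine breakdown, Eno4, Mrpl44, a mitochondrial ribosomal protein, Cd300lf, an inhibitory receptor of myeloid cells, Cntln, Ppp1r3c, a glycogen-targeting subunit, Gtf2h4, a subunit of TFIIH, Hmbox1 and Nat9. At Luc7l2 the libraries held 5, 4, 10 and 25 tags in NLRP3KO and 44, 22, 28 and 22 tags in WT (log2 fold change -1.32, adjusted p = 0.0668 in edgeR). At Cd300lf they held 18, 10, 55 and 100 tags in NLRP3KO and 84, 51, 67 and 102 tags in WT (log2 fold change -0.70, adjusted p = 0.294 in edgeR). The Eno4 peak (chr19:58942826-58943099) held 44, 2, 12 and 12 tags in NLRP3KO and 91, 61, 71 and 60 tags in WT, or 16.3 ± 25 CPM in NLRP3KO and 39.1 ± 7.7 CPM in WT (SD, n = 4 each). NLRP3KO replicate 1 had 53.1 CPM, while the other NLRP3KO libraries had 2.95 to 5.27 CPM. With all libraries the adjusted p was 0.246 in edgeR, and without NLRP3KO replicate 1 it was 2.6e-07. With all 8 libraries kept, Eno4 also passed in edgeR with promoter peaks alone in the fit (adjusted p = 0.00948), with a replicate block (0.0146) and with the share of tags in peaks as a covariate (0.000643).

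The 10 higher peaks chosen by the same rule were those of Nrf1, an activator of mitochondrial biogenesis genes, Lrrc74b, Ak1, an adenylate kinase, Ptpro, a receptor phosphatase, Tmem100, Glul, the glutamine synthetase, Trex1, a DNA exonuclease that limits sensing of cytosolic DNA, Grk3, 1700003F12Rik and Nim1k. At Glul the libraries held 106, 61, 242 and 367 tags in NLRP3KO and 170, 98, 147 and 210 tags in WT, or 111 ± 16 CPM in NLRP3KO and 83.7 ± 12 CPM in WT (SD, n = 4 each). The log2 fold change was 0.41 with a standard error of 0.13 and an adjusted p of 0.662 in edgeR. At Nrf1 they held 5, 5, 42 and 57 tags in NLRP3KO and 16, 12, 9 and 14 tags in WT (log2 fold change 1.08, adjusted p = 0.399 in edgeR). NLRP3KO replicates 3 and 4 were the high ones, and without NLRP3KO replicates 1 and 2 the Nrf1 promoter passed with an adjusted p of 0.00626.

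Most promoter peaks had small differences, and on balance they leaned to lower values in NLRP3KO, by an amount that depends on scaling. Their median log2 fold change was -0.066, against 0.026 over all other tested peaks, and 63.3% of tested promoter peaks were below 0, against 49.5% of all tested peaks. With scaling to all tags the promoter median was 0.053 and that of other peaks 0.114, so the sign turned while promoters stayed below the other peaks. With promoter peaks alone in the fit the promoter median was 0.0037. At an unadjusted p under 0.05, 110 promoter peaks (0.967%) were higher in NLRP3KO, against 2.61% of all tested peaks, and 342 (3.01%) were lower, against 2.22%. With promoter peaks alone in the fit these counts were 263 higher and 252 lower. The libraries of the genotypes did not overlap at 84 promoter peaks that were higher in NLRP3KO (0.738%, against 1.68% of all tested peaks) and at 190 that were lower (1.67%, against 1.49%).

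**Figure D4:**
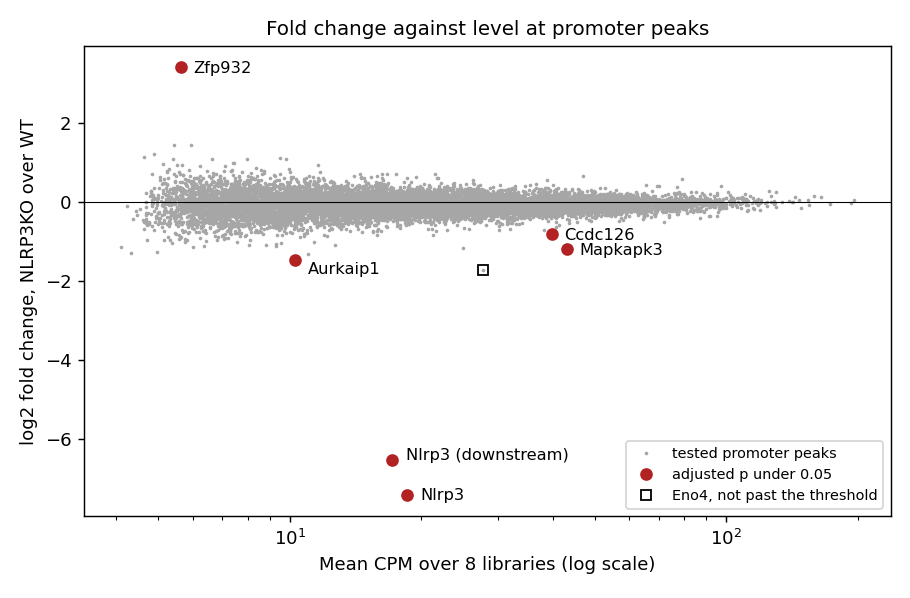
The log2 fold change of NLRP3KO over WT (vertical axis) against the mean CPM over 8 libraries (horizontal axis, log scale) for 11375 tested promoter peaks. The 6 that passed are red and labelled, Eno4 is the open square, and the remaining peaks lie close to 0, more so at higher CPM.

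The same lean was read per library. Promoter peaks took 25.9%, 24.9%, 26.2% and 28.5% of the tags in peaks in NLRP3KO libraries and 25.3%, 27.7%, 30.5% and 29.2% in WT libraries, a mean of 26.4% ± 1.52 in NLRP3KO and 28.2% ± 2.22 in WT (SD, n = 4 each). The genotypes overlapped, since WT replicate 1 lay among the NLRP3KO libraries and NLRP3KO replicate 4 among the WT ones. Of all tags, promoter peaks held 1.73%, 1.24%, 5.49% and 7.48% in NLRP3KO and 4.43%, 2.71%, 3.91% and 4.22% in WT. Those values moved with the share of tags in peaks, and the means were close, at 3.98% ± 3.01 in NLRP3KO and 3.82% ± 0.767 in WT. Without NLRP3KO replicates 1 and 2 the NLRP3KO mean was higher than the WT mean by 2.66 percentage points.

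The lean was seen in CpG-rich promoters. Their median log2 fold change was -0.081, against -0.0018 in CpG-poor promoters, and it ran from 0.074 at a CpG ratio under 0.2 to -0.114 at a ratio above 1. With scaling to all tags the medians were 0.042 in CpG-rich and 0.103 in CpG-poor promoters, and without NLRP3KO replicates 1 and 2 they were -0.049 and 0.011. With the log2 share of tags in peaks as a covariate they were -0.092 and -0.011. In single libraries the CpG-rich promoters deviated from their mean level by -0.060, -0.113, -0.065 and 0.093 on the log2 scale in NLRP3KO and by -0.119, 0.046, 0.210 and 0.126 in WT. WT replicate 1 was thus the lowest library and WT replicate 3 the highest, and CpG-poor promoters varied less, from -0.039 to 0.048 in NLRP3KO and -0.0007 to 0.062 in WT. CpG-rich promoters held 80.5%, 80.3%, 80.1% and 81.5% of the tags of promoters with a window in NLRP3KO and 79.8%, 81.7%, 82.7% and 82.1% in WT. These ranges overlapped.

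Gene lists differed in how many of their genes had a promoter peak and in CpG content. Homeostatic microglial genes had a median promoter level of 72.8 CPM per kb, and 17.4% of their 23 promoters with a window were CpG-rich. Inflammasome promoters were 22.2% CpG-rich, antigen presentation 30.0%, disease-associated microglia 41.7% and interferon response 44.4%. Respiratory chain and ATP synthase promoters were 97.1% CpG-rich, general transcription machinery 94.0%, alpha-ketoglutarate-dependent dioxygenases 92.9% and cytosolic ribosomal proteins 90.9%. Developmental transcription factors, a set of mostly silent patterning genes such as the Hox genes, had a promoter peak in 4 of 57 cases, although 26 of 57 had a peak somewhere. Of 24 lists, only the inflammasome and pyroptosis list held promoter peaks that passed the test, and both were those of Nlrp3.

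Among microglial promoters, that of C1qb held 56, 67, 226 and 315 tags in NLRP3KO and 197, 131, 130 and 110 tags in WT, or 91.9 ± 16 CPM in NLRP3KO and 78.8 ± 21 CPM in WT (SD, n = 4 each), with overlap between the genotypes. The homeostatic list had a median log2 fold change of 0.096 over 31 tested promoter peaks, with none past the threshold, and its summed level was 946.0 to 1171 CPM in NLRP3KO and 992.3 to 1039 CPM in WT. Trem2, a lipid receptor of microglia, had the smallest p of the list and held 6, 6, 13 and 15 tags in NLRP3KO and 20, 15, 14 and 20 tags in WT (log2 fold change -0.65, adjusted p = 1 in edgeR). The disease-associated list had a median log2 fold change of 0.032 over 30 tested peaks. Its highest promoters were those of Tyrobp, the signalling adaptor of TREM2, with 75.4 ± 9.1 CPM in NLRP3KO and 69.0 ± 11 CPM in WT, and of the lysosomal protein Cd68, with 70.4 ± 6.6 CPM in NLRP3KO and 67.9 ± 4.0 CPM in WT.

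In the inflammasome list 17 of 25 genes had a promoter peak, although 24 of 25 had a peak somewhere. Casp1, Il18, Il1b and Pycard were among the 8 without a promoter peak. Beside Nlrp3, the highest were those of the sensor Nlrp1b, with 58.2 ± 13 CPM in NLRP3KO and 53.0 ± 8.4 CPM in WT, and of Txnip, a thioredoxin-binding protein, with 50.3 ± 5.0 CPM in NLRP3KO and 57.5 ± 6.1 CPM in WT. The median of the list was 0.0079 over 20 tested peaks, with Nlrp3 at its fitted value. The inflammatory cytokine and NF-kB list had the highest level of the 24 lists, 84.9 CPM per kb, with a median log2 fold change of -0.090 over 31 tested peaks. That level covers only the 24 of its 32 genes with a promoter peak. Il1b, Il10, Ccl5, Cxcl1 and Ptgs2 had none, and the peaks with the most tags were those of Nfkbib and Traf2. The immediate early gene Jun had 127 ± 6.0 CPM in NLRP3KO and 131 ± 9.9 CPM in WT. Interferon response promoters had a median of -0.043 over 23 tested peaks, and antigen presentation promoters -0.034 over 28.

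Of the metabolic lists, glutamine and glutamate metabolism had a promoter peak in 27 of 30 genes and a median log2 fold change of -0.080 over 33 tested peaks with none past the threshold. Got1, an aspartate aminotransferase, had 69.5 ± 11 CPM in NLRP3KO and 67.9 ± 5.1 CPM in WT. The TCA cycle list had a median of -0.061 over 32 tested peaks, and its highest promoter, that of the malate dehydrogenase Mdh1, had 117 ± 5.7 CPM in NLRP3KO and 121 ± 9.4 CPM in WT. The list of dioxygenases that use alpha-ketoglutarate had a median of -0.097 over 30 tested peaks. Its highest promoter was that of the histone demethylase Kdm4a, with 113 ± 11 CPM in NLRP3KO and 105 ± 13 CPM in WT. Respiratory chain promoters had a median of -0.096 over 39 tested peaks, cytosolic ribosomal proteins -0.088 over 60, general transcription machinery -0.12 over 57 and cell cycle -0.092 over 49. Immediate early gene promoters had a median of -0.065 over 40, myeloid transcription factors -0.063 over 54, lysosome and autophagy -0.050 over 47 and glycolysis -0.043 over 32. These medians stand beside -0.066 for all tested promoter peaks, and their signs depend on scaling: 16 of the 24 lists were below 0, against 0 of 24 with scaling to all tags and 9 of 24 with promoter peaks alone in the fit. Under all 3 scalings 8 of the 24 lists were above 0. Of these the astrocyte list had medians of 0.371, 0.445 and 0.474 over 5 tested peaks, the neuron list 0.314, 0.355 and 0.486 over 3, and the granulocyte and lymphocyte list 0.184, 0.371 and 0.262 over 3. The homeostatic list had 0.096, 0.218 and 0.169, and the disease-associated, inflammasome, oligodendrocyte-lineage and border macrophage lists had 0.0053 to 0.032 in the fit of all peaks.

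The marker lists of other cell types had median levels of 20.1 to 32.7 CPM per kb, against 55.9 CPM per kb over all promoter peaks. Single promoters in them were higher, such as Nr4a1 at 155.2, Slc2a1 at 135.2, Myrf at 78.9 and Il7r at 74.3 CPM per kb. The 3 neuronal peaks summed to 10.9 to 26.6 CPM in NLRP3KO and 10.7 to 16.5 CPM in WT, and the 5 oligodendrocyte-lineage peaks to 51.9 to 62.4 CPM in NLRP3KO and 52.7 to 58.6 CPM in WT. The 6 astrocyte peaks, of which 5 were tested, summed to 45.9 to 69.4 CPM in NLRP3KO and 33.3 to 45.0 CPM in WT. These ranges did not overlap, by a narrow margin. Of the 24 lists, only this one and the inflammasome list had sums without overlap between the genotypes. Over all tested peaks, 1.68% were higher and 1.49% lower in NLRP3KO without overlap. The inflammasome list summed to 351.4 to 434.7 CPM in NLRP3KO and 437.7 to 492.7 CPM in WT. It holds both Nlrp3 peaks, which averaged 0.08 and 0.19 CPM in NLRP3KO and 37.1 and 34.0 CPM in WT. Without them its ranges would overlap, so this separation only repeats the Nlrp3 calls. Other scalings were not checked for these sums. Slc1a3, an astrocyte glutamate transporter, held 5, 2, 14 and 40 tags in NLRP3KO and 7, 5, 13 and 10 tags in WT (log2 fold change 0.80, adjusted p = 1 in edgeR). Border macrophage and monocyte promoters summed to 126.9 to 169.8 CPM in NLRP3KO and 139.7 to 153.9 CPM in WT, endothelial and mural ones to 65.0 to 85.6 CPM in NLRP3KO and 67.1 to 76.6 CPM in WT, and granulocyte and lymphocyte ones to 48.7 to 65.4 CPM in NLRP3KO and 48.4 to 52.6 CPM in WT. The part of other cells in the values above was not tested, and a change in the share of cells that are open and a change in opening per cell cannot be told apart in bulk libraries.

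**Figure D5:**
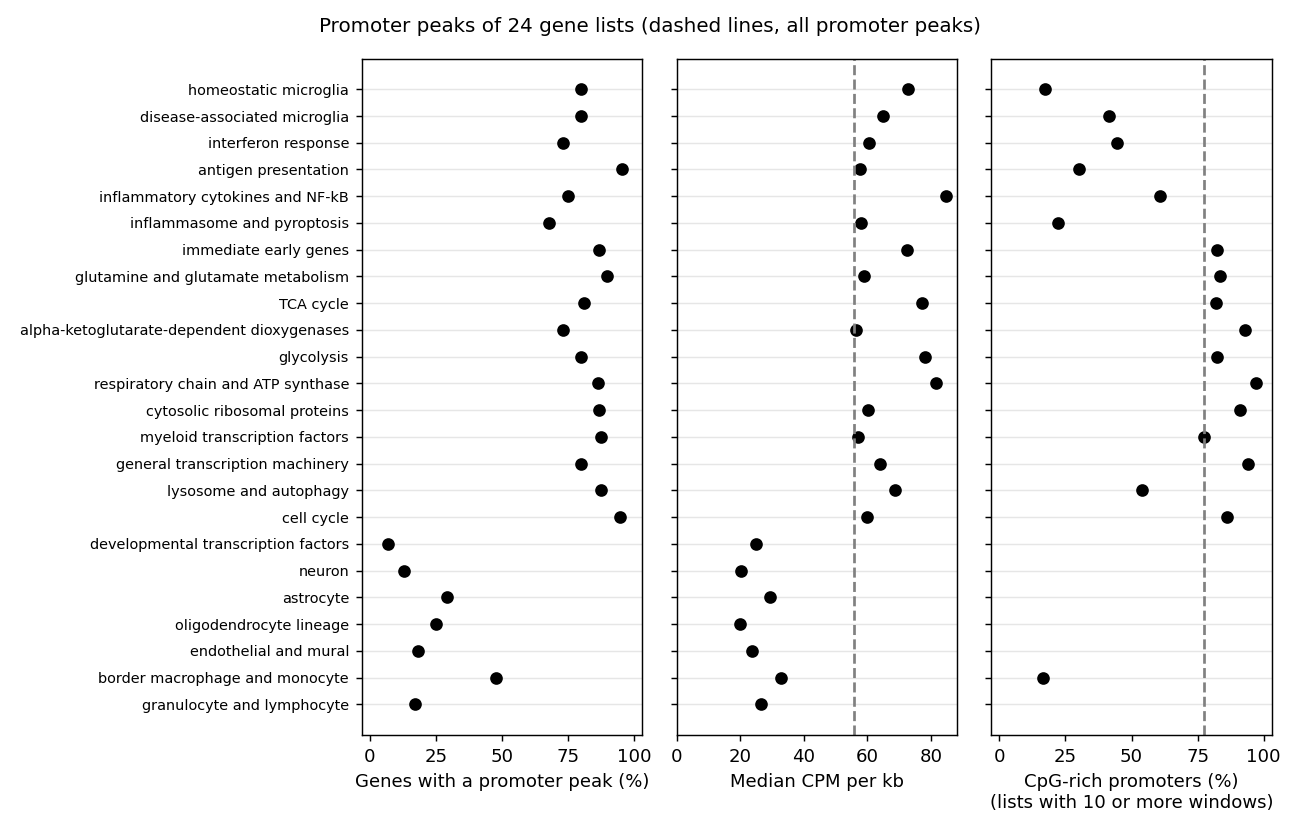
For 24 gene lists (rows), the share of genes with a promoter peak in percent (left), the median CPM per kb over 8 libraries (middle) and the share of CpG-rich promoters in percent where a list has 10 or more windows (right). Dashed lines are the values of all promoter peaks, 55.9 CPM per kb and 77.6%, and the lists of other cell types and of developmental factors lie at the low end on the left and in the middle.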

How the data were processed

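ATAC-seq libraries of CD11b-positive forebrain microglia (4 NLRP3KO, 4 WT) were selected on a gel for 165 to 250 bp and sequenced from one end for 51 cycles, per the labels' protocols. Bowtie2, HOMER, DESeq2 and the mm10 build are named in the submitters' processing notes, without versions or settings. Whether reads were shifted for the transposase, or duplicates and mitochondrial reads removed, is not given in the sources used here. Per the file headers, the authors counted tags over the merged reproducible (IDR) peak lists of both genotypes with HOMER, taking at most 3 tags per position. The deposited raw table gives these counts. The deposited normalized table gives the same tags as a signal scaled to a common total, per the file headers, and was used only to check the raw one.

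The counts of all peaks were fitted in edgeR 4.0.16 (R 4.3.3) with TMM scaling, filterByExpr at a minimum count of 10 and the quasi-likelihood F test with genotype as the only term. P-values were adjusted by Benjamini-Hochberg over all 58135 tested peaks, and promoter peaks were read out of that fit. Standard errors are the log2 fold change divided by the square root of F. The procedure was also run on counts simulated from the observed means and fitted dispersions, without outlying libraries. No result here rests on that run. Fold changes are log2 of NLRP3KO over WT, levels are CPM with SD over 4 libraries, and intervals cover counting error only. Promoter sequence came from RefSeq windows (GRCm38.p6) of the assigned gene within 1000 bp of a peak, a distance chosen after overlap alone had matched only 7979 promoter peaks. The CpG classes were also set after the files were seen. The members, the 24 gene lists and the motifs were chosen with earlier results of these data known.

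Named promoters were those past an adjusted p of 0.05, the next 10 in each direction by p with a mean of at least 20 tags, all of Nlrp3, the 12 with the highest CPM, the 2 highest and the smallest p of each list, and 3 genes with the most promoter peaks, ties taken by name. A few further promoters were named for their level per kb, and some that the rule names are not reported here. Replicate numbers were not used to pair libraries in the main fit. The deviations of same-numbered libraries correlated above 0.1 for 1 of the 4 numbers, which cannot decide whether they were paired. Alternatives covered scaling, DESeq2 1.42.0, filters, moderation, a replicate block, a covariate for the share of tags in peaks and left-out libraries.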

Additional observations from a re-analysis of the deposited data

Results flagged for a closer look

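In 17 of 236 groups of 4 libraries, over the named promoter peaks and the promoter shares of tags, 1 library lay far from the other 3 by Dixon's criterion. Chance flags about 1 group in 20 where values are normally distributed. A group with 0 in 3 libraries and any tags in 1 is always flagged, as at the upstream Nlrp3 peak and Zfp932. The values below are CPM.

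In NLRP3KO libraries, replicate 1 had 53.1 at Eno4, against 2.95 to 5.27 in the others, 67.6 at C1qb, against 98.9 to 101.9, and 12.1 at Bub1b, against 13.2 to 13.3. Replicate 2 had 60.5 at Cd68, against 73.3 to 74.1, 35.4 at Ifnar1, against 58.2 to 60.3, 0 at Kdm3b, against 13.3 to 15.5, and 11.8 at Ebf1, against 5.71 to 6.03. Replicate 3 had 13.6 at Nim1k, against 22.6 to 24.1, and replicate 4 had 0.323 at the upstream Nlrp3 peak, which is 1 tag, against 0 in the others.

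In WT libraries, replicate 1 had 141.7 at Rfx1, against 165.8 to 167.2, 154.6 at Map3k3, against 138.9 to 140.2, 31.3 at the second Elmo2 peak, against 35.8 to 35.9, and 14.9 at an Adcy7 peak, against 6.26 to 7.03. Replicate 2 had 17.6 at Aurkaip1, against 14.2 to 14.4, and 4.92 at Zfp932, against 0 in the others. Replicate 3 had 13.1 at a Bmf peak, against 14.8 to 14.9, and replicate 4 had 1.40 at Eno2, against 5.62 to 6.26. What set these libraries apart at single promoters was not tested.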

How the results depend on the processing

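Of the 6 promoter peaks past the threshold, both Nlrp3 peaks passed under all 18 alternatives, Mapkapk3 under 17, Aurkaip1 under 14, Zfp932 under 11 and Ccdc126 under 7. None of these 6 changed sign. Of the named peaks that did not pass, scaling to all tags turned the sign of 26 and a fit of promoter peaks alone that of 19, none past the threshold. With scaling to all tags 3 promoter peaks passed (1 higher, 2 lower), Mapkapk3, Aurkaip1 and Ccdc126 having an adjusted p of 1 in edgeR, and the median log2 fold change of promoter peaks was 0.053, against 0.099 over all peaks. DESeq2's Wald test gave 3 (0 higher, 3 lower), as did a filter at a mean of 20 tags, which left Aurkaip1 and Zfp932 untested. Robust moderation gave 0 higher and 6 lower. The share of tags in peaks as a covariate gave 1 higher and 8 lower. Without NLRP3KO libraries 1 and 2 there were 2 higher and 7 lower, adding Nrf1, Sfi1, Tmem267 and Eno4, and the share of all tags held by promoter peaks differed by 2.66 percentage points, against 0.165 with all libraries. Leaving out each library in turn gave 4 to 7 calls, 0 to 1 higher and 4 to 7 lower, with none higher without NLRP3KO replicate 4 or WT replicate 1, 3 or 4. The median then ran between -0.122 and -0.027, and the difference in the promoter share of tags in peaks between -2.76 and -1.05 percentage points. The replicate block gave 8 calls (1 higher, 7 lower), adding Eno4 and Hmbox1. The deviations of same-numbered libraries correlated with r of 0.016, 0.047, -0.036 and 0.166. Libraries with different numbers were not compared, so these values cannot decide whether libraries were paired. With windows that overlap the peak only, an alternative chosen after seeing the data, the CpG-rich share differed by -0.96 percentage points, against -0.93, and promoters with a CCAAT box had 89.4 CPM per kb, against 53.9 without. The causes of these changes were not tested. Medians of 12 to 61 tags per promoter peak and library limit what can be detected.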
